A study of Homo sapiens with 4 samples.

Results

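The RNAs described here come from 9 human genes that bring iron into the cell, store it, release it from ferritin or haem, export it or sense it: TFRC, SLC11A2, FTH1, FTL, NCOA4, HMOX1, SLC40A1, IREB2 and ACO1. They were picked by name, with the content of the lists already known, and every listed peak of each was taken. The 9 genes had 8 of the 22448 peaks of the shNC list and 10 of the 24626 peaks of the shALKBH5 list. Of the 9, 6 had a peak in both lists, SLC40A1 had one in the shALKBH5 list only, and FTL and ACO1 had none. Of the 12774 genes of the series with a peak in either list, 83.0% had one in both, beside 6 of the 7 members with a peak. No member peak shared a base with another peak of its own list.

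The cells were RPMI-8226, an established human multiple myeloma line, transduced with a lentivirus carrying either the hairpin named shNC or a hairpin against ALKBH5 (shALKBH5 or shA5 in the labels). ALKBH5 is an enzyme that removes N6-methyladenosine (m6A), the commonest internal base modification of messenger RNA. In m6A-seq, an antibody against m6A pulls modified pieces out of poly(A) RNA (the IP), and these are sequenced beside RNA without enrichment (the input). There was 1 IP and 1 input library per condition, 4 in all, so nothing measures how far cultures differ and no test between conditions was made. Each list gives, for every peak, the authors' fold of IP over input, a ratio within 1 condition, and the authors' p-value, printed here as its log10. All such values below are from the authors' deposited tables. Positions are on hg38 and counted from 1.

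Iron handling in cells is set largely after transcription. Transferrin-bound iron enters through the transferrin receptor (TFRC), crosses the endosomal membrane through the divalent metal transporter SLC11A2, is stored in ferritin shells made of heavy (FTH1) and light (FTL) subunits, and leaves through ferroportin (SLC40A1), the known iron exporter of animal cells. NCOA4 carries ferritin to the lysosome for breakdown, and HMOX1 opens the haem ring and frees its iron. The iron regulatory proteins, encoded by ACO1 and IREB2, bind hairpins called iron-responsive elements in the untranslated regions of several of these messenger RNAs when iron is scarce, which blocks translation of ferritin and ferroportin and stabilises TFRC. In plasma cells, which make large amounts of antibody, ferritin and ferroportin have been studied as points that set sensitivity to iron and to proteasome inhibitors.

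The lists carry no read counts, so library depth is unknown. The median fold was 6.54 over all shNC peaks and 6.64 over all shALKBH5 peaks, with median log10 p of -15.8 and -15.3. The ALKBH5 gene itself had 3 listed peaks per list, and since a fold within a condition holds no expression level, the knockdown was not checked here. Of 12 plasma cell and B lineage markers, 8 had a peak in both lists, among them SDC1, IRF4, PRDM1 and XBP1, and TNFRSF17, SLAMF7, JCHAIN and CD79A had none. Of markers of other cell types, 1 of 7 T and NK cell (CD8A), 2 of 6 myeloid (ITGAM and CD68), 2 of 5 stromal (CXCL12 and PDGFRB) and 0 of 6 erythroid ones had a peak in either list. An RNA without a listed peak can be scarce, unmodified or shallowly covered, and these cannot be told apart here.

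Iron uptake came first. TFRC (ENSG00000072274, minus strand of chromosome 3, with a RefSeq span of 196049284 to 196082090) had a peak with identical borders in both lists, 196051875 to 196052145, which is 271 bases long and lies 2591 bp from the gene end. Its fold was 3.05 with shNC and 2.99 with shALKBH5. Its log10 p was -211 and -217. The 2 lists thus gave nearly the same values at this site, with a fold below the median of either list and a p that only 1835 shNC and 1811 shALKBH5 peaks exceeded in strength.

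A further TFRC peak stood in the shALKBH5 list alone, at 196081949 to 196082039, 91 bases that begin 51 bp downstream of the RefSeq gene start. Its fold was 19 and its log10 p was -4.84. The nearest shNC peak of any gene lay 29803 bp away. The fold was higher than that of 89.5% of the shALKBH5 list, while 19787 peaks of that list had a stronger p. Of 73 shALKBH5 peaks with exactly this fold and this p, 37 had no partner in the shNC list, a partner being a peak that shares at least 1 base. Among the 1715 shALKBH5 peaks with a log10 p within 0.5 of it, 40.7% had no partner (exact 95% binomial interval 38.4 to 43.1%, counting error only). Among the 265 of these at a gene start, 61.9% had none (55.7 to 67.8%). Among the 150 of the 1715 whose fold was also at least as high, 44.7% had none (36.6 to 53.0%). Among the 2587 with a fold at least as high, at any p, 10.1% had none (8.99 to 11.4%).

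The sequence at the TFRC start is shown because this is the member whose listed sites differ at the start of the gene, beside those of CIAO2B and GLRX5, the other iron genes whose start peaks in the shALKBH5 list alone had the strongest p. Each line gives 30 bases before the start in lower case and the first 20 transcribed bases in capitals, 5′ to 3′ on the gene's strand, from RefSeq on GRCh38.p14, at chr3:196082071-196082120 (minus strand), chr16:66934383-66934432 (minus strand) and chr14:95535020-95535069 (plus strand).
TFRC: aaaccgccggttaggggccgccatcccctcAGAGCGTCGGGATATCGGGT
CIAO2B: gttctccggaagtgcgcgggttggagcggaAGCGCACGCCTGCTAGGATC
GLRX5: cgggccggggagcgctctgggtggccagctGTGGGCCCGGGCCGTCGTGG
The TFRC RNA begins with A, as does that of CIAO2B, whereas GLRX5 begins with G. The lines are parts of RefSeq start windows, each 300 bases long and ending with the first 50 transcribed bases. Of 35116 such windows, 44.4% have A as the first transcribed base. The letters GGAC, a core of the usual m6A sequence, occur 2 times in the first 50 transcribed bases of TFRC (searched on the RNA strand only, with no overlap between matches possible), against at least 1 time in 18.9% of all windows. The full TFRC window, which runs further than the line shown, ends just short of the TFRC peak. It shares 0 bases with that peak, so these letters lie beside the peak and not in it. The CIAO2B and GLRX5 windows share 71 and 60 bases with their peaks and hold 0 GGAC in the first 50 transcribed bases.

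SLC11A2 (ENSG00000110911) lies on the minus strand of chromosome 12, with a RefSeq span of 50952263 to 51028886. Each list held 3 of its peaks, close together inside the gene, and each had exactly 1 partner. At the site nearest to the gene end, 50986851 to 50987120 with shNC and 50986851 to 50987060 with shALKBH5, the fold was 9.88 and 5.25. The log10 p there was -27.8 and -15.2. At the middle site, 50987389 to 50987509 and 50987299 to 50987479, the fold was 2.43 and 4.2. The log10 p was -4.3 and -6.36. At the site nearest to the gene start, 50988107 to 50988197 and 50988077 to 50988257, the fold was 2.23 and 4.36, with log10 p of -3.03 and -6.41. Within this transporter RNA the order thus differed between sites: the site nearest to the gene end had the higher fold in the shNC list, and the other sites had it in the shALKBH5 list. The wider peak was also the one with the stronger p at each site, with 270 bases against 210, 121 against 181 and 91 against 181 (shNC against shALKBH5).

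**Figure D1:**
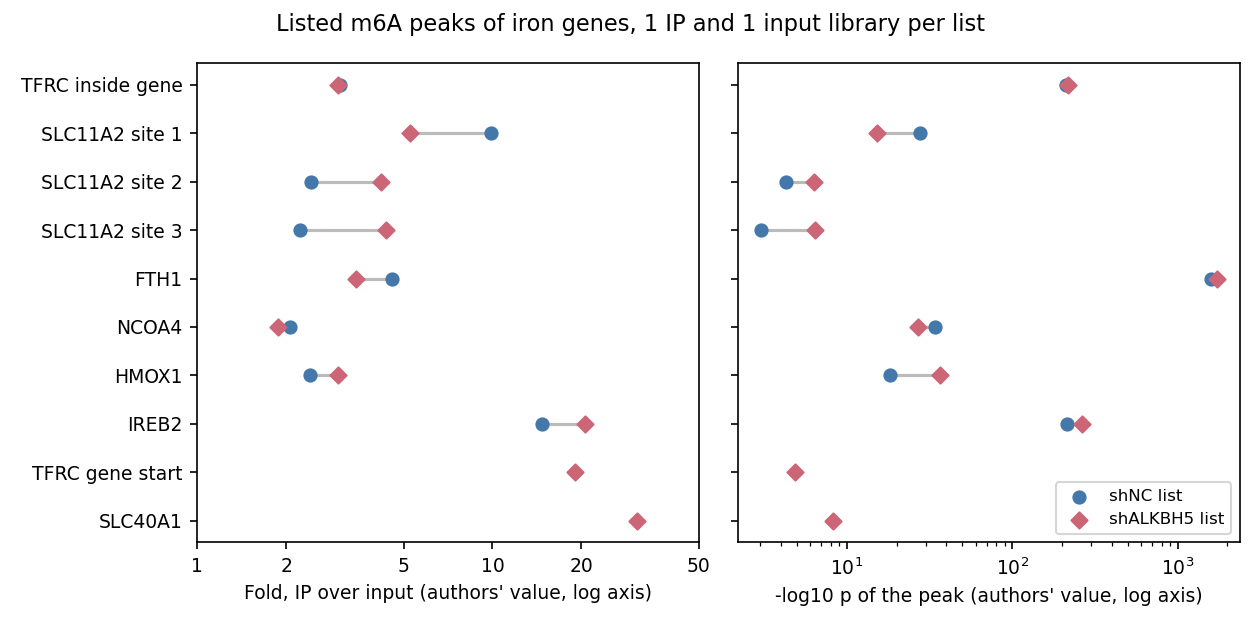
Fold of IP over input (left, log axis) and -log10 p (right, log axis) for each listed peak of the iron genes, with circles for the shNC list and diamonds for the shALKBH5 list, 1 value per list. SLC11A2 sites are numbered from the gene end; FTH1 has the strongest p at a moderate fold, and the TFRC start peak and SLC40A1 have high folds, weak p and no shNC value.

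Iron storage was represented by the heavy ferritin subunit alone. FTH1 (ENSG00000167996, minus strand of chromosome 11, with a RefSeq span of 61964285 to 61967634) had 1 peak with identical borders in both lists, 61967157 to 61967660. It is made of blocks of 10 and 349 bases with a gap of 145 bp between them, a form the lists use for peaks that run across a gap such as a splice junction, and it reaches 26 bp upstream of the RefSeq gene start. The fold was 4.57 with shNC and 3.46 with shALKBH5. The log10 p was -1600 and -1730, and only 80 shNC and 54 shALKBH5 peaks had a stronger p. By fold the same peak stood above 35.9% of shNC peaks and 25.1% of shALKBH5 peaks. FTH1 is thus a case where the authors' p and fold place a peak very differently within the same list.

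FTL (chromosome 19, RefSeq span 48965309 to 48966879), which encodes the light subunit, had 0 peaks in either list, and no peak of any other name lay within its span. Retrocopies of both subunits did carry peaks. Of 27 FTH1 and 20 FTL pseudogenes in RefSeq, 3 and 2 had a peak, and 1 and 2 had one in both lists. FTLP12 had folds of 44.6 (shNC) and 35.3 (shALKBH5) at log10 p of -12.5 and -11.2. FTLP15 had folds of 25.9 and 3.8 at log10 p of -6.86 and -4.48, and FTH1P3 had 14.3 and 9.95 at -3.78 and -4.73. FTH1P2 and FTH1P16 had peaks in the shNC list only, with folds of 1.66 and 12.5. Reads of near-identical copies can be split between them, and none of the sources used states how the authors treated such reads, so the ferritin values are uncertain.

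NCOA4 (ENSG00000266412, chromosome 10, RefSeq span 46005088 to 46030623, minus strand), the receptor that takes ferritin to lysosomes, had 1 peak per list, 46010402 to 46010762 for shNC and 46010432 to 46010912 for shALKBH5. These share 331 bases. The fold was 2.07 and 1.88, the lowest of any member in each list, and the log10 p was -34 and -27.1. HMOX1 (ENSG00000100292, chromosome 22, RefSeq span 35381096 to 35394207, plus strand), the inducible haem oxygenase, had 1 peak per list at the very start of the gene. It spans 35381101 to 35381279 with shNC and 35381071 to 35381279 with shALKBH5, so the downstream border is the same and the upstream border lies 30 bp apart. The fold was 2.41 and 3, and the log10 p was -18.3 and -36.6. Both of these genes thus had low folds in either list, and their order between lists was opposite.

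SLC40A1 (ENSG00000138449, chromosome 2, RefSeq span 189560590 to 189580786, minus strand), the exporter ferroportin, was the one member with a peak in a single list. Its shALKBH5 peak, at 189563912 to 189564150, is 239 bases long and lies 16636 bp from the gene start and 3322 bp from the gene end. The fold was 30.8, which 705 peaks of the list exceeded, and the log10 p was -8.28, which 15763 peaks exceeded in strength. No shNC peak of any gene lay closer than 88376 bp. At its p it had the highest fold of the list: of 22 shALKBH5 peaks with a log10 p of -8.28, 17 had the same fold of 30.8, and 4 of these 17 had no partner. The TFRC start peak was likewise at the highest fold of the 82 peaks with its p.

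The choice of comparison peaks changed how unusual the lack of a partner looked. Among the 745 shALKBH5 peaks with a fold at least as high as that of SLC40A1, 3.62% had no partner (exact 95% binomial interval 2.4 to 5.23%). Among the 779 with a log10 p within 0.5 of its own, 26.3% had none (23.3 to 29.6%). Of the 31 of these whose fold was also at least as high, 25.8% had none (11.9 to 44.6%). Over the whole list, 19.8% of shALKBH5 peaks had no partner, and 2 of the 10 iron gene peaks had none. In the shNC list, 12.6% of all peaks and 0 of the 8 iron gene peaks had no partner. Of all genes with a peak, 11.5% had it with shALKBH5 only and 5.50% with shNC only, against 1 and 0 of the 7 iron genes with a peak. When each list was limited to the stronger 50% of its peaks by p, neither SLC40A1 nor the TFRC start peak remained, and 0 shALKBH5 peaks and 1 shNC peak of the members, at SLC11A2, lacked a partner. The genes were picked with the lists known, the counts are small, and nothing particular to iron genes is read from them.

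**Figure D2:**
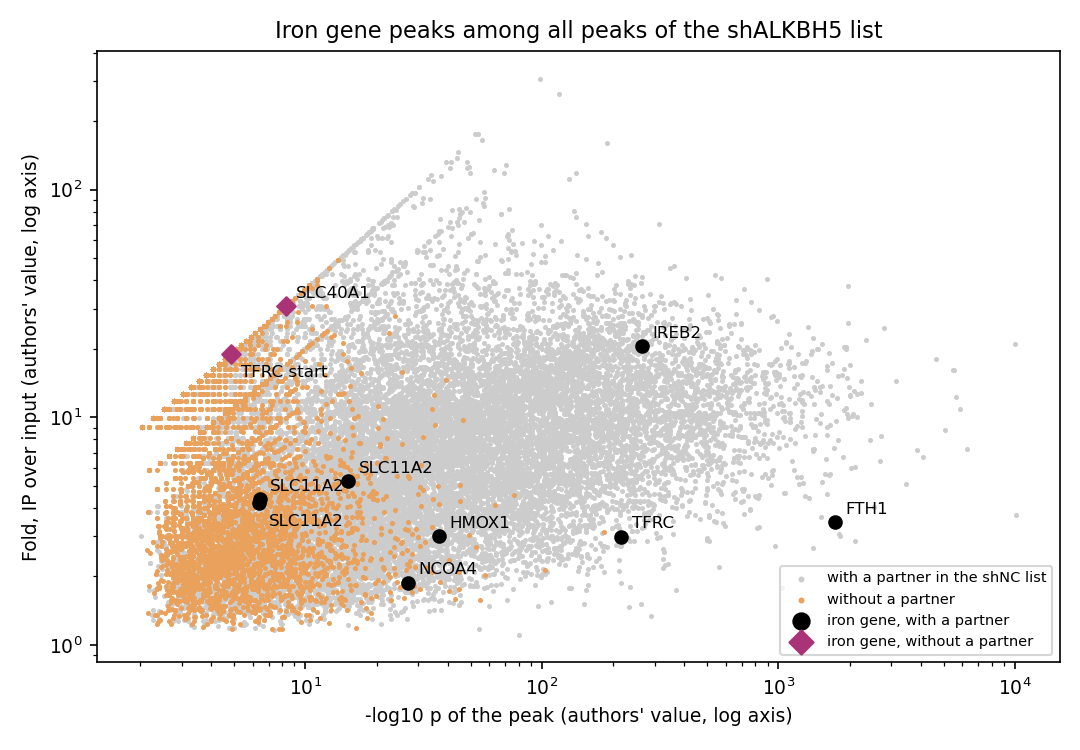
Fold of IP over input against -log10 p (both log axes, authors' values) for all peaks of the shALKBH5 list, in grey where an shNC partner exists and in orange where none does, with the iron gene peaks on top. SLC40A1 and the TFRC start peak (diamonds) lie on the upper edge, where the fold is the highest listed for its p. The other iron gene peaks had a fold below the highest at their p, save FTH1, the only peak with its p.

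The regulators differed from each other. IREB2 (ENSG00000136381, chromosome 15, RefSeq span 78437431 to 78501453, plus strand), the iron regulatory protein that is degraded when iron is plentiful, had 1 strong peak per list. It begins at 78497320 in both, with a first block of 19 bases and a gap of 694 bp, and ends at 78498643 with shNC and at 78498433 with shALKBH5. The second block measures 611 and 401 bases, so the shALKBH5 peak lacks 210 bases at the 3′ side. The fold was 14.7 and 20.6, and the log10 p was -214 and -265. Of the members, it alone combined a fold above the list median with a p stronger than the list median in both lists. ACO1 (chromosome 9, RefSeq span 32384643 to 32454769), which encodes the iron regulatory protein that doubles as cytosolic aconitase, had 0 peaks in either list, and no other peak lay within its span.

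Across the members, 8 pairs of peaks could be set side by side, each 1 to 1. The fold was higher with shALKBH5 in 4 pairs and with shNC in 4, and 50.6% of the 14577 such pairs of the whole series had the higher fold in the shALKBH5 list. The p was stronger in the shALKBH5 list in 6 of the 8 pairs, against 56.2% of all such pairs. The median fold of the members' peaks was 2.74 with shNC and 4.28 with shALKBH5, below the list medians of 6.54 and 6.64. Without the 2 peaks that had no partner, the shALKBH5 median was 3.83. Borders were identical in 2 of the 8 pairs (TFRC and FTH1). Of all shNC peaks, those without a partner included, 12.5% had borders identical to a peak of the other list. That share was not taken over pairs alone, so the values are not like for like. All 9 borders that differed among the members did so by a multiple of 30 bp, from 30 to 210 bp, and so did 98.2% (within 1 bp) of 14694 shifted borders over all single-block pairs.

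**Figure D3:**
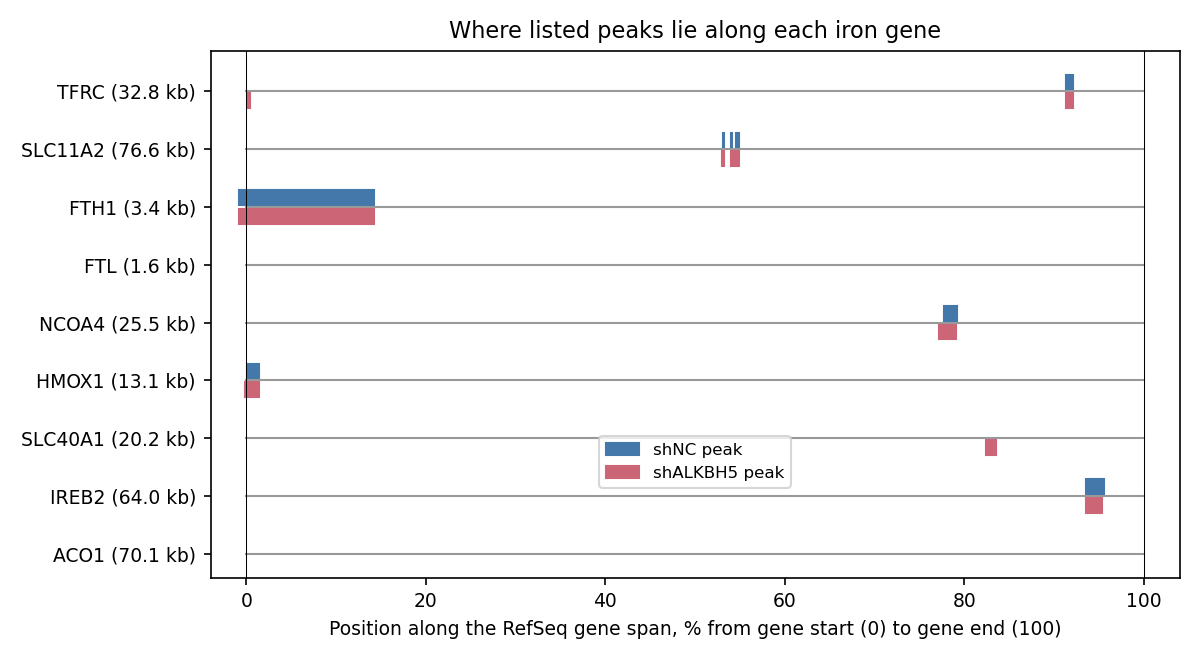
Listed peaks drawn from first to last base, gaps between blocks included, along the RefSeq span of each gene from start (0%) to end (100%), with the shNC list above and the shALKBH5 list below each line. Peaks at gene starts are seen in FTH1 and HMOX1 in both lists and in TFRC in the shALKBH5 list; FTL and ACO1 have none.

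By position, FTH1 and HMOX1 had a start peak in both lists, and TFRC had one in the shALKBH5 list, where a start peak begins upstream of or less than 500 bp into the gene. That makes 2 of 8 and 3 of 10 peaks, beside 11.4% and 14.5% of all placed peaks of the lists. None of the members had a peak that ended less than 1000 bp from the gene end (0 of 8 and 0 of 10), beside 23.0% and 22.1% of all placed peaks. Of the other iron genes, chosen as a list with earlier results known, 19 of 57 shNC peaks and 16 of 72 shALKBH5 peaks lay there. The members with more than 1 block were FTH1 and IREB2, 2 peaks in each list, beside 17.4% and 17.9% of all peaks.

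The wider iron pathway was described with 79 further genes in 7 groups. Of these, 36 had a peak in both lists, 1 with shNC only, 5 with shALKBH5 only and 37 in neither. The 36, 1 and 5 of the 42 with a peak stand beside 83.0%, 5.50% and 11.5% of all genes with a peak. In turnover of the iron regulatory proteins and iron chaperoning, 4 of 7 genes had peaks in both lists. FBXL5, the iron-sensing ligase adaptor that targets IREB2 for degradation, had a shared peak inside the gene whose fold was 11.8 (shNC) and 23.5 (shALKBH5), at log10 p of -169 and -220. It also had a start peak in the shALKBH5 list alone, where the fold was 2.46 and log10 p was -5.9. HERC2, a ubiquitin ligase, had folds of 18.5 and 16.7, and PCBP4, of the poly(C)-binding iron chaperone family, had its peak in the shNC list only, at a fold of 9.81 and log10 p of -4.43. FBXL5 and IREB2 each had the higher fold and the stronger p in the shALKBH5 list at their shared site, as did PCBP2. HERC2 had the higher fold with shNC but the stronger p with shALKBH5 (log10 p of -130 and -166). PCBP1 had the higher fold and the stronger p with shNC at each of its shared sites. Of all 1 to 1 pairs of the series, 50.6% had the higher fold and 56.2% the stronger p in the shALKBH5 list. Nothing joint is read from these genes.

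Among transferrin cycle genes and metal reductases, 4 of 13 had peaks in both lists and 8 had none, among them TF and TFR2. SLC39A14, a zinc transporter that also carries iron, had 1 peak per list whose folds were 20 (shNC) and 17.6 (shALKBH5), with log10 p of -1470 and -1310. SLC39A8 had 3 peaks per list with folds from 2.53 to 12.5 and from 1.78 to 9.05, the highest of them at a weak log10 p of -3.77 and -3.83. EXOC6, part of the exocyst, had a weak peak in the shALKBH5 list only, with a fold of 2.8. Of the systemic regulators and ferroxidases, 2 of 9 had peaks in both lists and 7 had none, the liver hormone HAMP included. BMP6, a ligand that drives HAMP in liver, had 2 peaks per list, with folds of 8.92 (shNC) and 17.8 (shALKBH5) at one and 8.03 and 4.89 at the other, and EPAS1, a hypoxia-inducible factor subunit, had 5 shNC and 3 shALKBH5 peaks, all with folds of 6.24 or less.

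Mitochondrial iron import and iron-sulfur cluster assembly had 13 of 21 genes in both lists and CISD1, a protein of the outer mitochondrial membrane, in the shALKBH5 list only (fold 1.82, log10 p -10.8). ABCB10, a transporter of the inner membrane, had folds of 49.1 (shNC) and 22.8 (shALKBH5), at log10 p of -302 and -265. SLC25A28, a mitochondrial iron importer, had a shared peak with folds of 5.92 and 34.4 whose log10 p was -17.6 and -16.2. The fold of that site was much higher in the shALKBH5 list without a stronger p. Its other shared peak had folds of 7.27 and 9.79 at log10 p of -186 and -213, and a weaker one, with a fold of 3.14, was in the shNC list only. In cytosolic cluster assembly, 4 of 9 genes were in both lists, and CIAO2B (fold 2.37, log10 p -18.8) and NUBP2 (2.31 and -15.7) were in the shALKBH5 list only. CIAO1, a scaffold that delivers clusters to target proteins, had folds of 12.3 and 13.6 at log10 p of -1930 and -1980 at one peak. At another it had 3.53 and 2.73, at -33.1 and -22.7. NUBP1 had folds of 10.7 and 5.2 at a weak log10 p of -2.61 and -3.4, and its shALKBH5 peak overlaps a TVP23A peak of the same list.

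In haem synthesis, 5 of 9 genes had peaks in both lists and 4 had none, including ALAS2, the erythroid form of the first enzyme. Its housekeeping form ALAS1 had a start peak with folds of 2.51 (shNC) and 5.03 (shALKBH5). UROD had a start peak in each list, and these share no base but lie only 29 bp apart. Their folds were 7.58 and 3.04 at log10 p of -3.08 and -4.91. UROD also had a shared end peak with folds of 2.18 and 1.95. In haem breakdown and transport, 4 of 11 genes were in both lists. FLVCR1, long studied as a haem exporter, had a start peak with folds of 34.8 and 43.4, HMOX2, the constitutive haem oxygenase, had 2 peaks per list with folds up to 5.06 and 3.73, and ABCG2 had a weak peak in the shALKBH5 list only (fold 1.83).

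**Figure D4:**
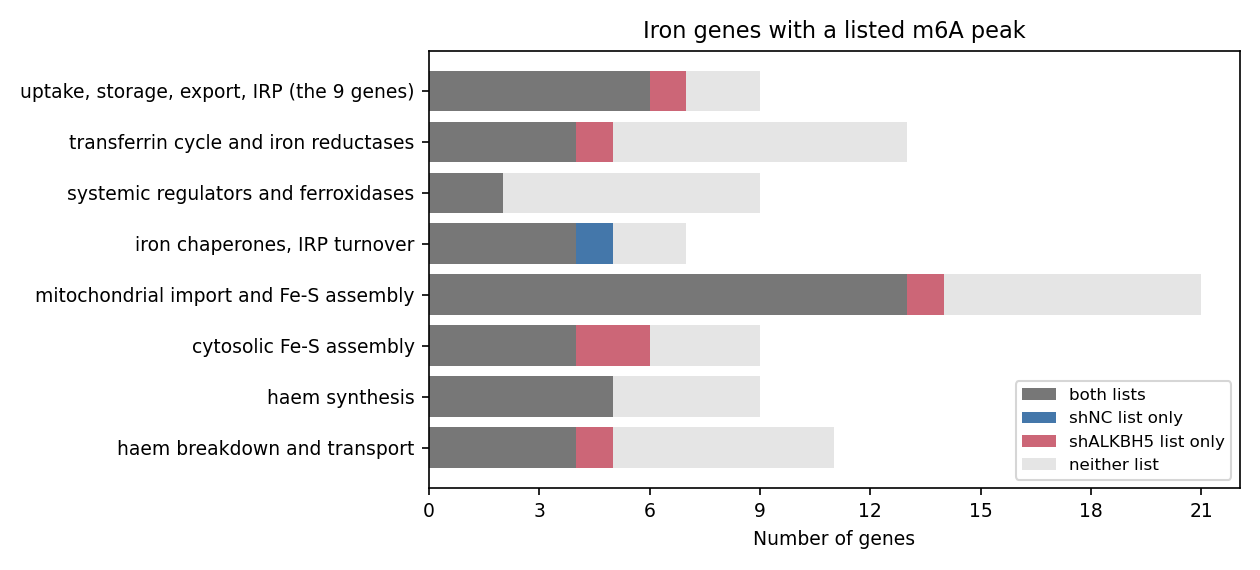
Number of genes per iron group with a listed peak in both lists, with shNC only, with shALKBH5 only or in neither, for the 9 genes (top bar) and 7 further groups. Genes in both lists make up the larger part of those with a peak in each group.

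Of the peaks of these 79 genes, 6 of 57 shNC and 19 of 72 shALKBH5 peaks lacked a partner, beside 12.6% and 19.8% of all peaks. Of the 19, 8 lay at gene starts, in UROD, CPOX, FBXL5, ISCA1, GLRX5, CIAO2B, CISD3 and NFS1, as did 1 of the 6, in UROD. Of all placed peaks without a partner, 27.1% lay at gene starts with shALKBH5 and 12.7% with shNC. With TFRC, 9 iron genes had an shALKBH5 start peak without a partner. Of these, UROD and CPOX also had a start peak in the shNC list, only 29 and 88 bp away. A RefSeq start window at the annotated gene start existed for 8 of the 9. Of these 8, 5 began with A, beside 44.4% of all windows. GGAC occurred in the first 50 transcribed bases of 2 (TFRC and NFS1), beside 18.9% of all windows. The TFRC and UROD windows share 0 bases with these peaks. LYRM4, a partner of the cysteine desulfurase NFS1, had 4 shALKBH5 peaks without a partner, with log10 p from -2.04 to -8.28, the weakest of which overlaps another of them. By group, the 8 start peaks belonged to 4 genes of mitochondrial and 1 of cytosolic cluster assembly, 2 of haem synthesis and FBXL5, while TFRC was the one such gene among the 9 uptake, storage, export and regulator genes.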

How the data were processed

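m6A-seq was run on poly(A) RNA of RPMI-8226 cells, with an IP and an input library per hairpin. The submitters' processing notes name the build hg38 and the tools HOMER 4.9.1, BWA 0.7.12 and fastp 0.19.11 without their roles. None of the sources used says which caller made the peaks, with what settings, or whether strand was kept. Each condition has 1 list, in which the authors deposited for every peak a fold (ratio of IP over input), a p-value, and its log10 and that of the FDR, which are read as scores with no fixed range. The largest FDR listed was 0.0479. A total of 1079 shNC and 1109 shALKBH5 FDR cells, and 2 and 1 log10 p cells, held a spreadsheet error. The log10 p cells among them were ranked as strongest, and the FDR was not ranked.

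The members and gene lists were chosen with earlier results of these data known. File starts count from 0, since in the shNC list 189 starts lay 1 bp before a RefSeq gene start and 20 on it. A gene's peaks were taken by symbol or a unique older symbol on its chromosome (RefSeq, GRCh38.p14). Peaks sharing at least 1 block base across lists, strand ignored, were partners (bedtools 2.31.1). Start and end peaks were set from the RefSeq span (500 and 1000 bp), which placed 88.4% and 88.2% of peaks. Of the 9 members, 7 had a RefSeq start window. All 9 members were named with every peak, with other iron genes in 1 list only or, per group, the 2 with the highest fold; others named were chosen after their values were seen. Partner calls and placements were tested on simulated data. No test between conditions was made. Alternatives were a fold limit, a p limit, other definitions of a partner, lists of equal length and other start windows. Python 3.11.15, pandas 2.3.3, numpy 2.4.6, SciPy 1.17.1 and matplotlib 3.10.9 were used.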

Additional observations from a re-analysis of the deposited data

How the results depend on the processing

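No paired analysis was possible because there is 1 list per condition and no result comes from a test. Member peaks without a partner stayed 2 in the shALKBH5 list (SLC40A1 and the TFRC start) and 0 in the shNC list with a reciprocal overlap of 50%, a 200 bp window, the same strand or lists of equal length by p. With a fold of at least 2 times the lowest of the list they were 3 and 0, since an SLC11A2 peak of the shNC list, with a fold of 2.23, fell just under the limit of 2.24. Among the stronger 50% of each list by p they were 0 in the shALKBH5 list and 1 in the shNC list, at SLC11A2, and the member genes in 1 list only were then 0 for shALKBH5 and 1 for shNC. Neither SLC40A1 nor the TFRC start peak reaches the median p of its list, and the strongest SLC11A2 peak with shALKBH5, with a log10 p of -15.2, just misses the median of -15.3 while its shNC partner, at -27.8, passes. The other iron genes in 1 list only were then 3 for shNC and 3 for shALKBH5, against 1 and 5, and 2 and 4 with lists of equal length. Start windows of 200 or 1000 bp left 2 and 3 member start peaks. CIAO2B and NUBP2 were in the shALKBH5 list only under each of these fold, p and length settings. The unknown depth limits what a missing peak shows.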
